A study of Homo sapiens with 18 samples.

Results

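The long xxChIP H1.5 domains are the peaks of at least 20000 bp that the merged xxChIP H1.5 list holds on chromosomes 1 to 22 and X. There were 1618 of them among the 138333 peaks of that list on these chromosomes, or 1.17% of the peaks and 10.2% of the bases the peaks cover. The 4 lists of the series hold 564548 peaks in all. The members were selected on peak length alone, so length is given here as a description and supports nothing. All samples came from untreated, undifferentiated HL-60/S4 cells, a single human myeloid leukemia cell line. In xChIP, fixed and permeabilized cells were sonicated before the antibody was added, and in xxChIP the antibody bound whole permeabilized cells, which were then fixed a second time and sonicated. Rabbit polyclonal antibodies against linker histone H1.2 or H1.5 gave the groups xChIP H1.2 and xxChIP H1.2 with the first antibody and xChIP H1.5 and xxChIP H1.5 with the second, in 3 replicates each, and 6 Input samples were not used here. Each group has 1 list, merged over its replicates, which gives peak positions with no height, read number or p-value. The depth and the spread between replicates are therefore unknown, no test between groups was possible, and the values below carry the counting error of regions only.

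Linker histones bind the nucleosome where DNA enters and leaves it, and help nucleosomes to fold into compact fibres. Human somatic cells hold several H1 isotypes at once, H1.2 and H1.5 among them, and H1.5 has been described over blocks of silent genes in differentiated cells. AT-rich sequence with few genes is, as a general background, often packed in compact chromatin at the nuclear edge, while tandem satellite repeats flank the centromeres. For every domain, the comparison was made with all positions of its own chromosome, in steps of 1000 bp, at which a stretch of the same length lies clear of assembly gaps of 50 bp or more. The mean over these positions is called the placement value, and the rank of a domain among them its percentile. Both are exact descriptions of the assembly and not tests, since neighbouring positions overlap.

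The sequences show the kinds of DNA that the domains hold, on GRCh37 and in the plus direction. The first is a stretch of 240 bases from the centre of a domain of very low GC content, chr13:63609294-63648583, which had 32.1% GC. This stretch, chr13:63628819-63629058, had no CpG, the dinucleotide that carries DNA methylation.
Centre of the domain of low GC content: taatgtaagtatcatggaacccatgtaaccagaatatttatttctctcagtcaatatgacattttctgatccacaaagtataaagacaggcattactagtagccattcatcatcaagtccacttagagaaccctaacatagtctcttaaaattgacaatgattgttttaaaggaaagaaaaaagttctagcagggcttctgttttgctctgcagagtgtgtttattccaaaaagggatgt

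The next are 3 neighbouring units of 171 bases from the domain chr7:61614864-61642390 beside the centromere of chromosome 7, with the bases that all 3 share in capitals. A unit of 171 bases is the period of human alpha satellite, the repeat of centromeres. These were the neighbouring units most alike in that domain, and 144 of the 171 positions were the same in all 3.
Unit 1, chr7:61638713-61638883: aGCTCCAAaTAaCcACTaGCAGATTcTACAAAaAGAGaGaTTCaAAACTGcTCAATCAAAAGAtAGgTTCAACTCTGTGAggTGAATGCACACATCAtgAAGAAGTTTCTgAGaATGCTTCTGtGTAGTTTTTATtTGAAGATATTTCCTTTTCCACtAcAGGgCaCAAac
Unit 2, chr7:61638884-61639054: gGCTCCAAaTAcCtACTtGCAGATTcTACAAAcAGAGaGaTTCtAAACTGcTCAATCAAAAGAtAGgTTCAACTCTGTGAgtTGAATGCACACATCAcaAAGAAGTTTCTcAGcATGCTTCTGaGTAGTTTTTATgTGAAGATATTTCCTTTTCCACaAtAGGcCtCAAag
Unit 3, chr7:61639055-61639225: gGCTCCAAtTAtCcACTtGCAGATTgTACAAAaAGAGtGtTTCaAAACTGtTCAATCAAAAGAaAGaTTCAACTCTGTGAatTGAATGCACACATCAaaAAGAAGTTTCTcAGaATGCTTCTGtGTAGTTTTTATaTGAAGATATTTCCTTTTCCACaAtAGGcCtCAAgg
Units 1 and 2 were the same at 89.5% of positions, units 2 and 3 at 90.1%, and units 1 and 3 at 87.1%. Over the whole domain, 64.5% of bases equalled the base 171 bp further on, against 27.0% from base composition alone.

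The domains covered 49.9 Mb, or 1.76% of 2836 Mb of ungapped sequence. Their median length was 25459 bp, with quartiles of 22147 and 32094 bp, and the mean was 30838 ± 19603 bp (SD, n = 1618). There were 762 domains under 25000 bp, 518 of at least 30000 bp, 98 of at least 50000 bp and 22 of at least 100000 bp. The longest spanned 276547 bp. At the threshold the 5 shortest domains had 20009, 20010, 20011, 20011 and 20015 bp, and the 5 longest peaks left out had 19980, 19982, 19985, 19993 and 19998 bp. No gap in the length distribution separates members from non-members.

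The 10 longest domains were almost all beside centromeres, and none shared a base with a protein-coding gene. The longest, chr7:62184037-62460583, had 97.0% of its bases in xxChIP H1.2 peaks, 93.0% in those of xChIP H1.2 and 75.2% in those of xChIP H1.5. The domain chr12:37984804-38180733 spanned 195930 bp and had 97.7%, 100% and 97.3% coverage by the same lists. The sixth longest, chr4:190523079-190696658, was the exception in place, near the end of the long arm of chromosome 4, with 83.4% of bases in xxChIP H1.2 peaks, against 7.76% in xChIP H1.2 peaks and 11.8% in xChIP H1.5 peaks. The other 9 lay within 2 Mb of an assembly gap of 1 Mb or more, on chromosomes 1, 5, 7, 11, 12, 16 and 19.

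Within 2 Mb of such gaps, which mostly stand for centromeres, there were 142 domains, against 45.0 by even spread over the sequence. These zones held 8.78% of the domains in 80.4 Mb. Their median length was 35250 bp, against 25085 bp for the 1445 domains elsewhere, and they included 16 of the 22 domains of at least 100000 bp. The outermost 2 Mb of the chromosomes held 31 domains, against 44.7 by even spread. Near the large gaps the domains had coverage of 84.3% from xxChIP H1.2, 50.8% from xChIP H1.2 and 48.8% from xChIP H1.5, and elsewhere of 66.6%, 14.2% and 16.9%. The authors kept uniquely mappable reads, and how well reads map in these repeats was not analysed here.

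Tandem repetition was commonest in the same zones. Of the 142 domains near large gaps, 33 matched themselves at a shift of 171 bp at 40% of bases or more, against 2 of the 1445 elsewhere. At the best shift between 20 and 10000 bp, 23 domains matched themselves at 50% or more, and 16 of them were near large gaps. The highest match was 72.1% at a shift of 2734 bp in chr7:61119789-61275908, a domain of 156120 bp. Outside these zones the highest was 71.9% at 4745 bp in chr4:9324870-9373239, which holds copies of USP17L genes.

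The domains were spread unevenly over chromosomes, as the plot of their number by chromosome shows. Chromosome 1 held 210 domains, against 128.5 by its share of the sequence, chromosome 7 held 145 against 88.6, and chromosome 19 held 53 against 31.8. Chromosome X had 15, against 86.2, and chromosome 5 had 42, against 101.4. The share of ungapped sequence inside domains was 3.36% on chromosome 19, 3.13% on chromosome 7 and 2.92% on chromosome 1, and at the low end 0.785% on chromosome 5 and 0.232% on chromosome X. On chromosome X, 0.250% of the list's peaks were long, against 1.17% over all 23 chromosomes. HL-60/S4 chromosome copy number was not analysed here, and its part in these counts was not tested.

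**Figure D1:**
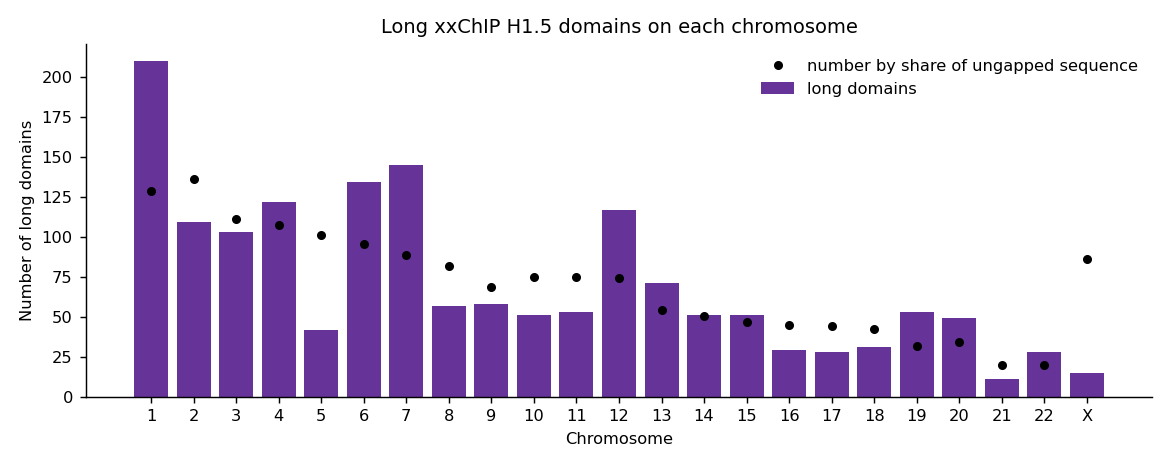
Number of long xxChIP H1.5 domains on each chromosome (bars), with the number each would hold by its share of ungapped sequence (black points). Chromosomes 1, 7 and 19 stood above their share (210 against 128.5, 145 against 88.6 and 53 against 31.8), and chromosome X stood lowest beside its share (15 against 86.2).

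Across the 23 chromosomes the share of sequence inside domains followed the total coverage by xxChIP H1.5 peaks of any length, with Pearson's r = 0.75 and Spearman's rho = 0.80. With protein-coding genes per Mb r was 0.45 and rho 0.35, and with GC content 0.40 and 0.26. These are descriptions over 23 chromosomes that share 1 list. Chromosome 19, the richest in genes, also had the largest share of its sequence inside domains.

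Domains lay near one another more often than an even spread gives. The nearest other domain was within 100000 bp for 487 of 1618 domains, or 30.1%, against 12.4% for the same number at independent positions on the same chromosomes. Within 50000 bp the shares were 18.6% and 6.45%, and within 200000 bp 44.0% and 23.2%. The median distance to the nearest other domain was 245020 bp. Of windows of 1 Mb, 22 held the midpoints of 5 domains or more, against 2.13 by even spread.

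The 5 windows with the most bases in domains were at 61 to 62 Mb of chromosome 7, at 46 to 47 Mb of chromosome 5, at 62 to 63 Mb of chromosome 7, at 130 to 131 Mb of chromosome 8 and at 50 to 51 Mb of chromosome 11. They held 52.4%, 35.4%, 33.2%, 32.5% and 30.7% of their bases in domains. The chromosome 7 window at 61 Mb had 9 domain midpoints, the highest number of any window, and no protein-coding gene. By number of midpoints the next were 143 to 144 Mb of chromosome 1, 20 to 21 Mb of chromosome 19 and 107 to 108 Mb of chromosome 1, with 7 each. The chromosome 19 window belongs to a region of ZNF genes, which code for zinc finger transcription factors.

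On chromosome 8, the domains around its longest one stood close together. Taking neighbours less than 2 Mb apart, a run of 16 of the 57 domains of chromosome 8 stretched from 126.7 to 130.5 Mb. They covered 24.3% of this span, which by construction starts and ends with a domain, against 0.975% of the rest of the chromosome. Of the 97 xxChIP H1.5 peaks in the span, 16.5% were long, and the longest had 134508 bp. These 16 domains had 98.0% of their bases in xxChIP H1.2 peaks, 23.0% in those of xChIP H1.2 and 20.9% in those of xChIP H1.5. HL-60 cells are known for extra copies of a segment around MYC in this band. How far the run overlaps that segment was not analysed here, and the part of copy number in the lengths was not tested.

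The domains were poorer in GC than their chromosomes. Their mean GC content was 37.8% ± 3.33 (SD, n = 1618), against a placement mean of 41.1%, and the mean difference was -3.27 percentage points. It was negative on all 23 chromosomes, from -7.76 on chromosome 19 to -1.28 on chromosome 4. Of the domains, 1353 (83.6%) lay under the middle of their placements, and the median percentile was 23.9. The quartiles of GC content were 35.7% and 39.1%. Mean GC content of the domains differed between chromosomes, from 35.5% on chromosome 13 to 41.8% on chromosome 22, and single domains ranged from 31.7% to 57.8%. Against positions within 5 Mb only, the mean difference was -2.17.

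**Figure D2:**
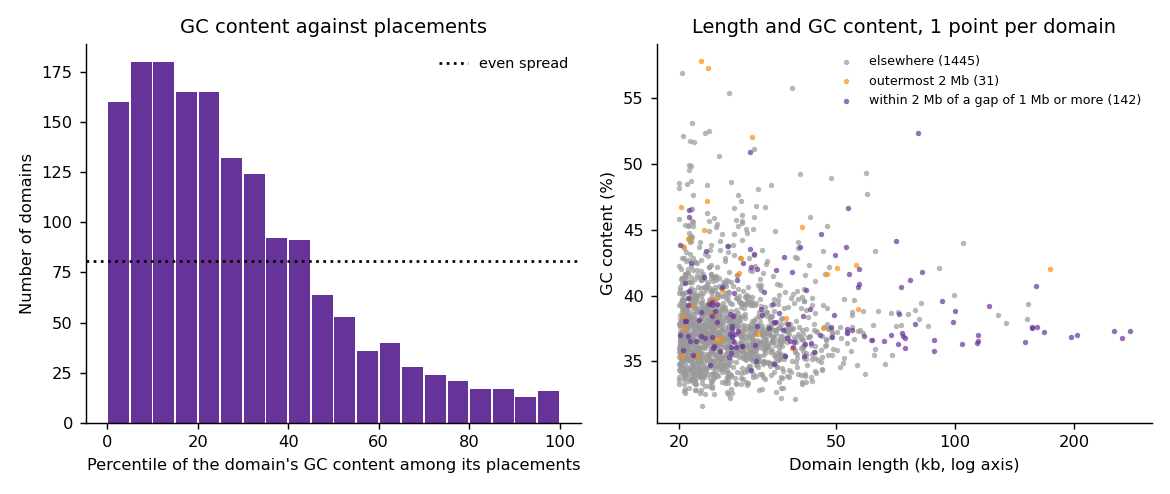
Left, number of domains by the percentile of their GC content among all placements on the same chromosome (bars, 5 percentiles each), with the number an even spread would give (dotted line, 80.9). Right, GC content (%) against length (kb, log axis) of each of the 1618 domains, coloured by place. Domains crowd towards the low percentiles, and 16 of the 22 domains of at least 100000 bp lie near large gaps.

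The CpG dinucleotide, the site of DNA methylation, was scarcer still. The domains had 6.45 ± 2.90 CpG per kb (SD, n = 1618), against 10.1 over placements, and 87.3% lay under the middle of their placements. Placements of like GC content, within 1 percentage point, had 7.26 per kb. At the GC-rich end, the 2 richest domains were chr14:106029100-106051850 with 57.8% and chr14:106149540-106173151 with 57.3%, in the immunoglobulin heavy chain locus. The third, chr4:7440310-7460628 with 56.9%, lay in SORCS2, a sorting receptor gene. Immunoglobulin genes are not protein-coding genes in the annotation's classes. They shared a base with a domain in 7 of 89 cases (7.87%) on chromosome 14, IGHA1 and IGHD among them, and in 8 of 212 (3.77%) in all. None of 177 T cell receptor genes did. Among protein-coding genes, a class that leaves both families out, the share was 2.04%.

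Most domains lay between protein-coding genes. A base with such a gene was shared by 427 of 1618 domains, or 26.4% (95% Wilson interval 24.3 to 28.6%), against 57.0% of placements and 49.3% of placements of like GC content. Gene bodies took 20.1% of domain bases, against 47.3% over placements and 42.9% at like GC content. The share of domains that touch a gene was under its placement value on all 23 chromosomes, at 0.178 times on chromosome 21 to 0.672 times on chromosome 19. When a domain touched a gene it was mostly inside it, since 325 domains, or 20.1%, lay wholly within gene bodies. Any annotated gene, long non-coding RNAs and pseudogenes included, was shared by 62.2% of domains, against 79.6% of placements.

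Transcription start sites (TSS) and exons were scarce in the domains. The domains held 88 protein-coding TSS, or 1.76 per Mb, against 7.68 per Mb over placements, a ratio of 0.23. At like GC content the placements had 3.81 per Mb, which gives a ratio of 0.46, near that of gene bodies at like GC content. Exons took 0.927% of domain bases, against 4.08% over placements and 2.66% at like GC content. No protein-coding TSS was held by 1555 domains, or 96.1%, against 83.1% of placements and 90.8% of placements of like GC content. Of other classes, TSS of long non-coding RNA genes numbered 182 against 342.1 over placements, a ratio of 0.53, and those of pseudogenes 259 against 269.5, a ratio of 0.96. At like GC content the placements had 224.3 and 237.1, with ratios of 0.81 and 1.09, so that the direction turned for pseudogenes.

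Seen from the genes, 411 of 20098 protein-coding genes (2.04%) shared a base with a domain, 88 (0.438%) had their TSS inside one and 44 lay wholly inside. Of all gene body bases, 0.776% lay in domains. The genes that shared a base had a median length of 176158 bp, against 26544 bp for the others, and a longer gene has more room to meet a domain. The genes that met most domains were AGBL4, a carboxypeptidase that acts on tubulin, ABCA13, a lipid transporter, and MACROD2, an ADP-ribosyl hydrolase, with 5 each. AGBL4 had 139007 bp in domains, ABCA13 121373 bp and MACROD2 112861 bp. For ABCA13 this was 25.5% of the gene, and its TSS was inside a domain, while for MACROD2 it was 5.48% of more than 2 Mb. In all, 14 genes met 3 domains or more. Among those with 3 domains, CEP112, CNTNAP2, CLSTN2, ANKS1B, SLC44A5, GRIK2 and SEMA6D had the most bases in domains, at 73078 to 112092 bp. Of these, CNTNAP2 and CLSTN2 code for synaptic membrane proteins and GRIK2 for a kainate receptor subunit.

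A different set of genes was nearly filled by a domain. Among genes over 20 kb, ZNF470 had 99.3% of its body in 1 domain, CEACAM5 96.0% and IL26 94.7%. CEACAM5 codes for an epithelial adhesion protein used as a tumour marker, and IL26 for a cytokine of T cells. NBPF8 with 90.9% and NBPF20 with 85.7% belong to a family copied many times on chromosome 1, among whose similar copies reads are assigned with uncertainty. ZNF729, CYP4F11, ZNF829, FCRL1 and ZNF726 had between 79.2% and 89.5%. CYP4F11 is a cytochrome P450 of fatty acids and FCRL1 a receptor of B cells. Among these genes xxChIP H1.2 peaks covered from 22.8% of CEACAM5 to the whole of ZNF470 and ZNF729. In ZNF470 and ZNF729 xChIP H1.2 covered 0% and 10.0%, and xChIP H1.5 26.0% and 9.89%. In NBPF8 and NBPF20 xChIP H1.5 covered 92.5% and 97.5%.

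The gene lists were counted against the 2.04% of all protein-coding genes that share a base with a domain and the 0.776% of their bases inside domains. An even spread of the domains over each chromosome would place 1.81% of the bases of all genes inside them. Both values are therefore given for each list with a member that shares a base. Long genes, of 500 kb or more, shared a base in 95 of 323 cases, with 1.40% of their bases in domains against 1.76% by even spread, and 2 had their TSS inside. Glutamate receptor genes, for excitatory neurotransmission, did so in 8 of 27 cases with 2.70% of bases against 1.87%, GRIK2, GRID1 and GRIN2B leading with 75321, 51593 and 28353 bp. None of the 27 had its TSS in a domain. Cadherins did so in 3 of 23 cases, synaptic adhesion genes in 2 of 30, potassium channels in 3 of 94 and GABA-A receptor subunits, for inhibitory transmission, in 2 of 19. Their shares of bases ran from 0.696% in potassium channels, against 1.80% by even spread, to 1.41% in cadherins, against 1.26%. Synaptic adhesion genes had 1.14% against 1.71%, and GABA-A receptor subunits 1.23% against 1.46%.

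Among other gene families, ZNF genes, taken by name and not by place in a cluster, shared a base with a domain in 27 of 515 cases (5.24%). They had 2.44% of their bases inside against 2.31% by even spread. ZNF804A, ZNF717 and ZNF626 had the most, at 65451, 37812 and 29198 bp. On chromosome 19, home of 249 of the 515, 23 ZNF genes did so, or 9.24%, against 34 of all 1480 genes there (2.30%). Of the 53 domains of chromosome 19, 20 touched a ZNF gene, and the share of placements there that touch one was not computed. Olfactory receptors, the odour-sensing receptors, did so in 11 of 414 cases (2.66%), close to the share of all genes, with 1.39% of bases against 1.97% by even spread. Bitter taste receptors did so in 3 of 24, of which TAS2R41 lay wholly inside a domain. Keratin-associated proteins of hair did so in 3 of 94, where KRTAP4-3, KRTAP4-4 and KRTAP4-5 were wholly inside, keratins in 2 of 55 and beta-defensins in 2 of 40. Bitter taste receptors had 14.3% of bases inside against 2.29% by even spread, with 32622 bp in TAS2R14 and 16249 bp in TAS2R1. These 2 annotated gene bodies span 234166 and 85032 bp of the 349 kb of the list, whose median gene has 1086 bp. The share of bases thus rests mostly on them, and neither had its TSS in a domain. Keratin-associated proteins had 2.77% against 1.30%, keratins 1.30% against 2.20% and beta-defensins 1.47% against 2.03%.

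Cytochrome P450 genes shared a base in 2 of 57 cases and UDP-glucuronosyltransferases, conjugating enzymes of the liver, in 1 of 21, where UGT2B4 had 51.7% of its body in a domain. The P450 genes had 1.59% of bases inside against 2.12% by even spread, and the UDP-glucuronosyltransferases 2.01% against 1.39%. Several lists had no member that shared a base with a domain. They were the 53 clustered protocadherins, 39 HOX genes, 87 histone genes, 85 cytosolic ribosomal protein genes, 17 type I interferons, 36 MAGE genes, 15 granule protein genes and 19 myeloid transcription factors. The last 2 lists hold genes known for use in myeloid cells. At 2.04% of genes, lists of this size would hold few members by number alone.

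Of the 88 TSS inside domains, 19 belonged to USP17L genes on chromosome 4 and 4 to TAF11L genes on chromosome 5, both families in tandem arrays, for which the assignment of reads is uncertain. USP17L genes code for deubiquitinating enzymes. Of the 20 USP17L genes on chromosome 4, 19 shared bases with 2 domains, of which USP17L23 had only 37.7% of its body inside. The median USP17L gene was covered to 100% by each of the other 3 lists. Without both families the TSS ratio to placements was 0.17. On chromosome 4, which holds the USP17L genes, the ratio was 1.49, the only chromosome above 1.

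The promoters of genes whose TSS lies in a domain were poor in CpG. Over 250 bp before to 50 bp after the TSS, the 88 promoters had a median of 5 CpG and 51.3% GC, against 18 CpG and 60.3% GC over 20094 protein-coding promoters. At most 5 CpG were held by 54.5% of them, against 23.9% of all, and without USP17L and TAF11L genes by 73.8% of 65. Promoters are shown 5′ to 3′ on the strand of the gene with CpG in capitals, on GRCh37. They run from IL26 and FCRL1, with 4 and 2 CpG, over CYP4F11 with 5, to USP17L24 with 13.
IL26, chr12:68619541-68619840, minus strand: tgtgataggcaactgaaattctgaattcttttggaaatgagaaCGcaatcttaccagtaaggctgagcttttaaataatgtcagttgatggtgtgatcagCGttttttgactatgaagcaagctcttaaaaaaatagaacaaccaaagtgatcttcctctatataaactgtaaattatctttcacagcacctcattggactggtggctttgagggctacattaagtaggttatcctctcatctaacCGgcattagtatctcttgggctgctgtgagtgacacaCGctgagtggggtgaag
FCRL1, chr1:157789861-157790160, minus strand: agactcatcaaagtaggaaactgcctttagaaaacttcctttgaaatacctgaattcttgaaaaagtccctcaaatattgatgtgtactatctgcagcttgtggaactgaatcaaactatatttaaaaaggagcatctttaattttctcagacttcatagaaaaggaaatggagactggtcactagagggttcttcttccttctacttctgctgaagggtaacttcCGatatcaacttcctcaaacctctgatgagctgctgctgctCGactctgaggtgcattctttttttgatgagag
CYP4F11, chr19:16045628-16045927, minus strand: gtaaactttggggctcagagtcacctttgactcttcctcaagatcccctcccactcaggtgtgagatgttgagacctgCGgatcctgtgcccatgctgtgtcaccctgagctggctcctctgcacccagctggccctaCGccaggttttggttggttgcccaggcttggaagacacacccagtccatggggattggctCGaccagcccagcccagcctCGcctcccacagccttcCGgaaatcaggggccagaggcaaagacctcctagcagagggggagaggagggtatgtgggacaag
USP17L24, chr4:9326641-9326940, plus strand: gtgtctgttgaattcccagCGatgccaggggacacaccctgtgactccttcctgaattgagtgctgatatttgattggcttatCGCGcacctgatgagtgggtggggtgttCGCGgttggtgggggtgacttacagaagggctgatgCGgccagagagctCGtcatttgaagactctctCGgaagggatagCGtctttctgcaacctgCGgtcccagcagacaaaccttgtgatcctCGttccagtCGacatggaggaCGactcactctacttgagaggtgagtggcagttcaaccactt
The IL26 and FCRL1 promoters are AT-rich, with 40.0% and 38.7% GC, while that of CYP4F11 has 60.0% GC with few CpG. The USP17L24 promoter was identical in 5 of the 18 other USP17L promoters inside domains, the median identity was 99.3%, and the lowest was 62.0%.

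The strongest overlap with another list was with xxChIP H1.2, made by the same protocol with the other antibody. Its peaks covered 69.5% of domain bases, against 21.1% over placements, a ratio of 3.29, and were above the placement value on all 23 chromosomes (2.59 to 6.13 times). Among placements of like GC content the value was 27.4%. The median domain was covered to 71.8%, with quartiles of 40.7% and 97.0%. Of the 1618 domains, 1104 were covered to 50% or more, 517 to 90% or more, 274 completely and 20 not at all. Of the domains, 779 (48.1%) touched an xxChIP H1.2 peak that was itself at least 20000 bp long. Of the 2920 such xxChIP H1.2 peaks, 773 touched a domain, which is 26.5%. Domains held 24.2% of the bases of these peaks, against 1.76% of ungapped sequence. How often placements touch such peaks, or are covered to 50%, to 90%, completely or not at all, was not computed.

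Coverage by the xChIP lists was far lower and differed between the antibodies beside their placements. xChIP H1.2 peaks covered 20.1% of domain bases, against 28.0% over placements, a ratio of 0.72. At like GC content the placements had 18.6%, so that the ratio was 1.08 and the direction turned. xChIP H1.5 peaks covered 21.9%, against 17.3% over placements, a ratio of 1.26. This excess was absent when domains near gaps or ends were left out, while the placements still took in positions there. Without the 229 domains within 1 Mb of a chromosome end or a gap of at least 50000 bp, the coverage was 15.9% against 17.5%, a ratio of 0.91. For xChIP H1.2 it was then 13.8% against 27.9%, a ratio of 0.49, and for xxChIP H1.2 66.4% against 21.4%, a ratio of 3.11.

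In the median domain xChIP H1.2 peaks took 10.8% of the bases and those of xChIP H1.5 13.5%, at median percentiles of 34.3 and 52.0 among placements, against 96.5 for xxChIP H1.2. No xChIP H1.2 base was found in 348 domains and no xChIP H1.5 base in 268. Coverage of at least 50% was seen in 108 domains for xChIP H1.2 and in 120 for xChIP H1.5. All 3 other lists covered 50% or more of 47 domains, and 44 of these lay within 1 Mb of a gap or end. A larger set of 287 domains had xxChIP H1.2 over 50% or more and both xChIP lists under 10%, with 22 of them near a gap or end. All 3 lists were under 10% in 16 domains. How many placements have no base of a list, or reach these coverages, was not computed, so these counts describe the domains only. Domains with and without a protein-coding gene had 65.2% and 70.8% of their bases in xxChIP H1.2 peaks. For xChIP H1.2 the values were 16.4% and 21.3%, and for xChIP H1.5 18.0% and 23.1%. Domains without a gene and away from large gaps had 67.4%, 13.7% and 16.8% for the 3 lists in the same order.

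**Figure D3:**
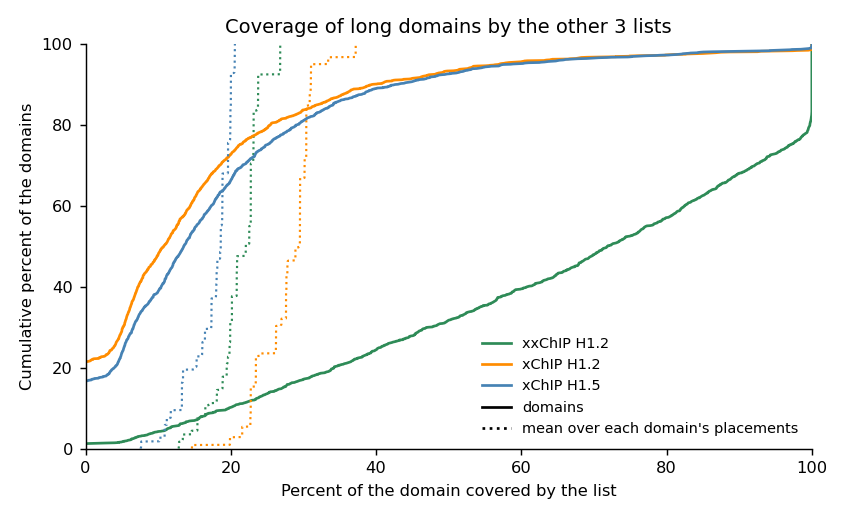
Cumulative percent of the 1618 domains against the percent of each domain covered by xxChIP H1.2 (green), xChIP H1.2 (orange) and xChIP H1.5 (blue) peaks, as solid lines, with the mean over each domain's placements as dotted lines. The median domain is at 71.8% for xxChIP H1.2 and at 10.8% and 13.5% for the xChIP lists, and the xxChIP H1.2 curve lies far to the right of its dotted line.

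At the domain edges coverage by each of the other lists dipped just outside and stepped up at the edge, most for xxChIP H1.2. The dip of xxChIP H1.2 went from 37.5% at 11 to 12 kb outside to 30.5% at 2 to 3 kb outside. At 2 to 3 kb outside xChIP H1.2 had 8.60% and xChIP H1.5 10.9%. Coverage by xxChIP H1.2 was 38.3% in the last 1 kb outside and 59.4% in the first 1 kb inside, and 68.9% at 9 to 10 kb inside. At 49 to 50 kb outside it was 32.8%. xChIP H1.2 coverage was 18.4% at 49 to 50 kb outside, 11.4% in the last 1 kb, 17.0% in the first 1 kb inside and 13.8% at 2 to 3 kb inside, and xChIP H1.5 had 16.9%, 13.4%, 17.2% and 16.8%. Gene bodies covered 25.4%, 23.4% and 23.0% of bases at the first 3 of these places, so that gene coverage was near the same on both sides of the edge. Of the 3236 domain edges, 26.9% lay within 500 bp of an xxChIP H1.2 peak edge on the same side, against 5.20% for even spread. For xChIP H1.2 the values were 10.1% and 5.10%, and for xChIP H1.5 8.47% and 5.13%.

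**Figure D4:**
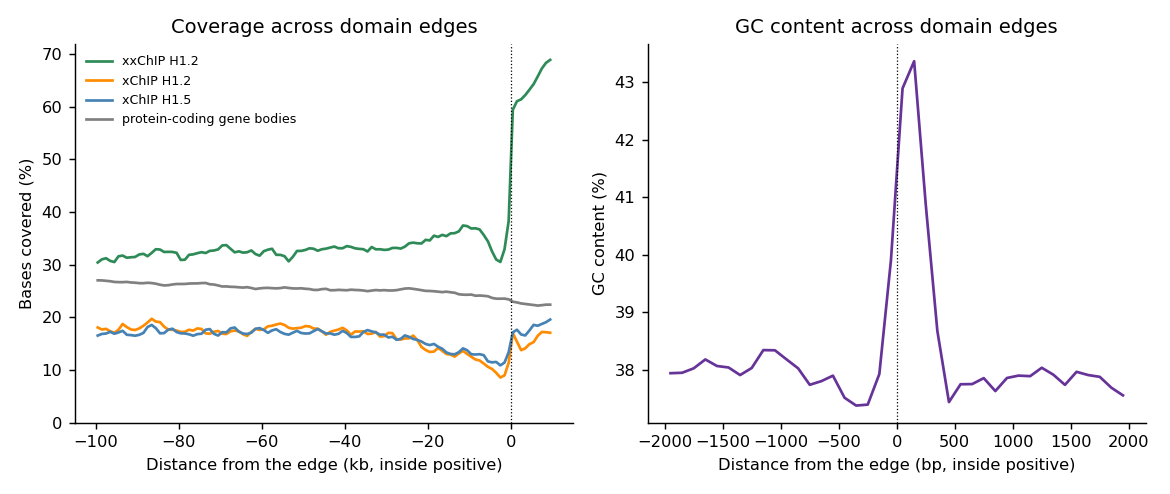
Left, percent of bases covered by each list and by protein-coding gene bodies in steps of 1 kb, from 100 kb outside to 10 kb inside the edges of the long domains. Right, GC content (%) in steps of 100 bp around the edges. xxChIP H1.2 coverage steps from 38.3% to 59.4% at the edge, and GC content peaks at 43.4% from 100 to 200 bp inside.

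The edges had a composition of their own. GC content averaged 42.4% over the first 300 bp inside, against 37.8% further inside and 38.0% outside (3196 edges with known sequence on both sides), and 72.2% of edges were above the inner value. CpG was at 1.14 per 100 bp at 100 to 200 bp inside, against 0.632 at 500 to 600 bp. A run of 12 bases that was common at the edges, CCTGTAATCCCA, belongs to the Alu family of interspersed repeats. This run was picked from all runs by its excess at these same edges over the inside, so its shares are a description and support nothing. Searched with its reverse complement, it was found in the first 300 bp of 509 edges, or 15.9%, against 2.75% of stretches of the same length inside and 1.78% outside. Runs of 6 A were commonest at 300 to 400 bp inside, at 0.229 per 100 bp, and runs of 6 T in the last 100 bp outside, at 0.193, when read from outside to inside.

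This was not particular to the long domains. In xxChIP H1.5 peaks of 10 to 20 kb the first 300 bp exceeded the inside by 4.44 percentage points, against 4.63 in the long domains. In long peaks of xxChIP H1.2, xChIP H1.2 and xChIP H1.5 the excess was 4.37, 4.26 and 2.00. In the domains within 2 Mb of large gaps it was 2.69 over the inside, but there was no excess over the outside (41.6% on both sides of the edge). Peak edges are set by the peak caller from mapped reads, and the part of mapping at repeats in this pattern was not tested.

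**Figure D5:**
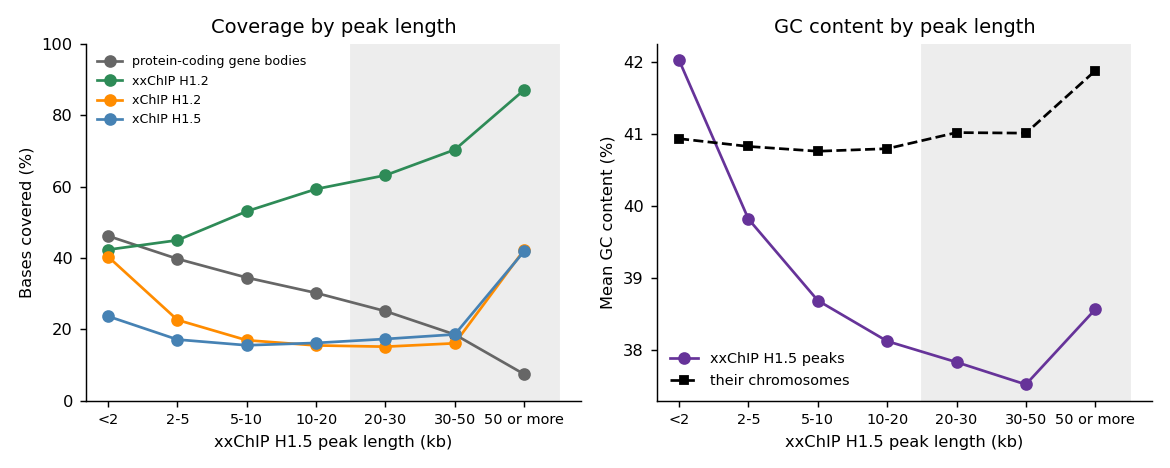
Left, percent of bases of xxChIP H1.5 peaks covered by protein-coding gene bodies and by the other 3 lists, by peak length (kb). Right, mean GC content (%) of the peaks and of their chromosomes. The shaded classes are the long domains. Gene coverage falls from 46.2% to 7.42% and xxChIP H1.2 coverage climbs from 42.3% to 87.1% from the shortest class to the longest.

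The long domains were the far end of a gradient along the xxChIP H1.5 list, which the plot by peak length shows. Peaks under 2000 bp had 46.2% of their bases in gene bodies, those of 10000 to 20000 bp 30.2%, those of 20000 to 30000 bp 25.1% and the 98 of at least 50000 bp 7.42%. Coverage by xxChIP H1.2 was 42.3%, 59.3%, 63.2% and 87.1% in the same classes. Mean GC content minus that of the chromosomes went from 1.09 percentage points in the shortest class to -3.19 at 20000 to 30000 bp, and was -3.31 in the longest class. TSS density was low at every length, with a ratio to the chromosome of 0.18 under 2000 bp and 0.22 at 20000 to 30000 bp. Coverage by the xChIP lists was highest at both ends. For xChIP H1.2 it was 40.4% in peaks under 2000 bp, 15.1% at 20000 to 30000 bp and 42.3% in the longest class. For xChIP H1.5 it was 23.7% in the shortest class, lowest at 5000 to 10000 bp with 15.5%, and 17.3%, 18.6% and 41.9% in the 3 classes of long domains. The classes were not split by place. Of the 22 domains of at least 100000 bp, 16 lay near large gaps, where xChIP H1.2 covered 50.8% and xChIP H1.5 48.8% of domain bases. Length and place cannot be told apart in the longest class.

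Long peaks of the other lists had other surroundings. The 2920 long xxChIP H1.2 peaks were most like the domains, with a mean GC content of 37.3%, 25.4% of bases in gene bodies and 1.52 TSS per Mb. The 5803 long xChIP H1.2 peaks had 44.9% GC, 52.4% of bases in gene bodies and 16.1 TSS per Mb, and the 1403 long xChIP H1.5 peaks had 42.3%, 37.0% and 8.45. Of the long xChIP H1.2 peaks 1.31% touched a domain, and of the long xChIP H1.5 peaks 5.35%. Domains held 1.29% and 6.92% of the bases of these peaks, beside 1.76% of ungapped sequence. The touching shares have no placement value, and the long peaks differ in extent, with 270 Mb in xChIP H1.2 and 46.6 Mb in xChIP H1.5. The large gap zones held 8.78% of the domains, 6.92% of the long xxChIP H1.2 peaks, 4.24% of the long xChIP H1.2 peaks and 8.34% of the long xChIP H1.5 peaks. Each list was merged from replicates of unknown depth, so the numbers of long peaks in the lists cannot be told apart from differences in depth or calling.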

How the data were processed

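H1.2 and H1.5 were mapped by xChIP-seq and xxChIP-seq in HL-60/S4 cells. Paired ends were mapped by the authors to hg19 (Bowtie2, uniquely mappable reads only), and MUSIC called peaks in every replicate, which were then pooled into 1 list per group. The deposited lists hold chromosome, start and end of each peak. They give no score and no depth, and merging can lengthen peaks.

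Samples were grouped by protocol and antibody. Domains were xxChIP H1.5 peaks of at least 20000 bp on chromosomes 1 to 22 and X. The members and the gene lists were chosen with earlier results of these data known. Sequence came from GRCh37, whose chromosomes match hg19, and genes from GENCODE 44 lifted to GRCh37. Bases, genes and TSS in domains were compared with the exact mean over all positions of the same length on the chromosome, in steps of 1000 bp, clear of gaps of 50 bp or more. Distances between domains were compared with independent positions. Neither comparison is a test, and no p-value was computed. The Wilson interval (95%) given with a share of domains takes in counting error alone.

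Named genes were those of the 10 longest domains, the 10 with the most domains, the 10 over 20 kb with the largest share of their body inside, those of the 5 fullest windows of 1 Mb, and up to 3 per list with the most bases inside. SORCS2, IGHA1, IGHD, the USP17L and TAF11L genes and the MYC band were named after their values were seen. The pattern for olfactory receptor names was narrowed after the data were seen. Some sequences are not reported here. The interval steps were tested on simulated data. Python 3.11.15, NumPy 2.4.6, pandas 2.3.3, SciPy 1.17.1, pysam 0.24.0, samtools 1.23.1 and matplotlib 3.10.9 were used.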

Additional observations from a re-analysis of the deposited data

How the results depend on the processing

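Alternatives changed the minimum length (15000 or 30000 bp), joined peaks at most 1000 bp apart, left out chromosome X or domains near gaps and ends, changed the placements (anywhere, within 5 Mb, or of like GC content) and the gene set. Where domains near gaps and ends were left out, the placements still took in those places. A value was held to be near the main one when it kept its direction and moved by less than its SD over 23 chromosomes, and 72 of 78 alternative values were. Of the other 6, 3 turned direction. Coverage by xChIP H1.2 went from 0.72 to 1.08 times its placement value against placements of like GC content. Coverage by xChIP H1.5 went from 1.26 to 0.91 without domains within 1 Mb of a gap or end, and to 0.97 without those within 2 Mb of a gap of 1 Mb or more, an alternative added after the data were seen. The remaining 3 kept their direction. With all annotated genes, the share of domains that touch a gene was 0.78 times its placement value instead of 0.46, and exonic bases 0.39 times instead of 0.23. With a minimum length of 30000 bp, domains within 100000 bp of another were 4.94 times as many as by even spread instead of 2.42. The TSS ratio went from 0.23 to 0.46 at like GC content and to 0.54 with all annotated genes, and the other direction calls were kept. Both TSS values count among the 72, because the SD of this ratio over chromosomes was wide, at 0.32, with chromosome 4 at 1.49. For clustering the SD was 1.76, so a value called near can still differ much from the main one. The cause of these moves was not tested. No paired analysis was possible because the lists are merged over replicates, and no replicate could be left out for the same reason. The lists give no read number, so depth sets a limit on peak length that cannot be measured here.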
